A study of Mus musculus with 25 samples.

Results

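Mediator and TFIID are large complexes that act at RNA polymerase II promoters, and the genes described here are all 54 of the 23116 genes in the RNA-seq table whose symbol is Med or Taf followed by a digit. Of these, 31 are Med symbols and 23 are Taf symbols. Expression was compared between 3 *Znf143 f/f* and 3 *Znf143 -/-* libraries of HSLAM cells, the LSK+ CD150+ CD48- population of bone marrow that is enriched for hematopoietic stem cells. The mice were littermates, homozygous for a floxed *Znf143* allele in which loxP sites flank exon 1, without (*Rosa26ERT2-Cre-*, giving *Znf143 f/f*) or with the Cre driver (*Rosa26ERT2-Cre+*, giving *Znf143 -/-*). All were C57BL/6 males of 8 to 12 weeks, and for 10 days both genotypes received tamoxifen at the middle dosage. The *Rosa26* promoter drives the tamoxifen-inducible Cre in many tissues, so the deletion was not restricted to blood cells. The sample labels call the deleted genotype a CTCF knockout. *Zfp143*, the mouse symbol of *Znf143*, was at 3.09, 4.45 and 3.68 in *Znf143 f/f* and at 0.156, 0.299 and 0.272 in *Znf143 -/-* libraries, whereas *Ctcf* averaged 31.2 and 28.6, in rescaled FPKM (fragments per kilobase of gene, with the 6 libraries brought to a common scale by median-of-ratios size factors).

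Mediator carries signals from DNA-bound activators to RNA polymerase II. Its head and middle modules contact the polymerase, its tail receives activators, Med14 joins the modules as a backbone, and a separable kinase module of Med12, Med13, cyclin C and Cdk8 or Cdk19 blocks the binding of the polymerase. TFIID consists of the TATA-binding protein and the TAF subunits, many of which pair through histone folds, and it recognizes core promoters. Some Taf symbols belong elsewhere, since Taf5l and Taf6l are subunits of the SAGA coactivator, Taf1a to Taf1d belong to the SL1 factor of RNA polymerase I, and Taf15 is an RNA-binding protein of the FET family that associates with part of TFIID. Mediator is known for its part at enhancers and promoters of blood stem cell genes, and ZNF143 is known to bind many promoters through a long motif with a conserved core.

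Of the 54 genes, 10 were on the list of ZNF143 direct targets that the study compiled, which it chose in part by expression in these samples and which is therefore not independent of the values. They were *Med4*, *Med11*, *Med12l*, *Med15*, *Med16*, *Med17*, *Med24*, *Med26*, *Med27* and *Taf8*. Promoters of 300 bases, from 250 before to 50 after a start, were found in RefSeq on GRCm38.p6 for 47 of the genes, 58 promoters in all. Both 9-letter parts of the ZNF143 motif were searched on both strands. TACAANTCC lay in 1.55% and CCCAGNATG in 2.04% of 32851 promoters, and either lay in 3.43%. Among the 47 genes, only *Med11*, *Med4* and *Taf8* had a match in this window, and each of them is on the direct target list, of whose promoters 24.7% had one. These 3 promoters are shown because they hold the letters, which are in capitals, and each reads 5′ to 3′ on the strand of its gene.
Med11, chr11:70451668-70451967, plus strand: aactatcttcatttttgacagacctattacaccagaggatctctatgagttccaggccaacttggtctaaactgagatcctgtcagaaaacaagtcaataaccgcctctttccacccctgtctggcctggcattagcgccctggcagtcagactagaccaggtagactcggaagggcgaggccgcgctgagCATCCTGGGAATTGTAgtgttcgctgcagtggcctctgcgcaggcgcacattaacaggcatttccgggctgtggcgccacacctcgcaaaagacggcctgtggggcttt
Med4, chr14:73509799-73510098, plus strand: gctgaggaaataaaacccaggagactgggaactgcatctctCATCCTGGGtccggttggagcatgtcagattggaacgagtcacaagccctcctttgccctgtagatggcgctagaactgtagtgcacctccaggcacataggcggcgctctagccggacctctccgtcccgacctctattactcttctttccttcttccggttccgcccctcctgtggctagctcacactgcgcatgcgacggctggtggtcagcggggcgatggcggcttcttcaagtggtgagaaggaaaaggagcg
Taf8, chr17:47502242-47502541, minus strand: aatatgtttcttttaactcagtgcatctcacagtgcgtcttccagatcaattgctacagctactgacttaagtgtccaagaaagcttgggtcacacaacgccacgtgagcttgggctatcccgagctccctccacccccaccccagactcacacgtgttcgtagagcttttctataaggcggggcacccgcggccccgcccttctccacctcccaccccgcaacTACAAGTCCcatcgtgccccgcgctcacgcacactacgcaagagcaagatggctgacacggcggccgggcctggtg
In *Med11*, both parts were read on the opposite strand and overlapped by 2 bases to form a run of 16 bases that begins 59 bases before the start. In *Med4*, the CCCAGNATG part was on the opposite strand and began 209 bases before the start. In *Taf8*, the TACAANTCC part was on the strand of the gene, 26 bases before the start.

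The log2 fold changes of the 3 genes with these letters had different signs, and none passed the test. *Med11*, a small head subunit, had rescaled FPKM of 56.4, 58.9 and 56.3 in *Znf143 f/f* and of 58.5, 53.5 and 49.3 in *Znf143 -/-* libraries. Its log2 fold change (*Znf143 -/-* minus *Znf143 f/f*, on the log2(rescaled FPKM + 0.1) scale) was -0.09, with a 95% interval of -0.30 to 0.12. *Med4*, a subunit of the middle module, was at 15.3, 19.8 and 15.0 in *Znf143 f/f* and at 13.4, 15.5 and 15.4 in *Znf143 -/-* libraries (log2 fold change -0.17, interval -0.48 to 0.15). *Taf8*, a TFIID subunit that pairs with Taf10, was at 10.3, 7.72 and 10.7 in *Znf143 f/f* and at 10.2, 13.8 and 13.7 in *Znf143 -/-* libraries (log2 fold change 0.38, interval -0.04 to 0.80). The genotypes overlapped for all 3.

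In HSLAM cells, transcripts of Mediator spanned a wide range of levels. Of the Mediator genes, 30 reached a mean FPKM of 0.1 and were tested. Their means in *Znf143 f/f* libraries ran from 1.32 to 71.3 rescaled FPKM, with a median of 12.6. The 30 include *Med9os*, an antisense RNA rather than a subunit, which also enters their counts, median and sum. *Med30*, a metazoan subunit between head and tail, was the highest, with 60.2, 89.8 and 63.9 in *Znf143 f/f* and 77.9, 67.2 and 70.2 in *Znf143 -/-* libraries. *Med12l*, the paralog of *Med12* in the kinase module, was the lowest by its mean over all libraries, with 1.25, 1.38 and 1.33 in *Znf143 f/f* and 1.49, 1.57 and 1.46 in *Znf143 -/-* libraries. The 4 Med genes of the kinase module lay at 1.32 to 3.17 rescaled FPKM in *Znf143 f/f*. This was below the mean of every other tested Med gene in the same libraries. Their partners *Ccnc*, *Cdk19* and *Cdk8* averaged 8.34, 5.71 and 1.20 in *Znf143 f/f*. The upper tail genes (*Med27* to *Med30*) lay at 12.6 to 71.3, the head at 7.63 to 57.2, the middle at 4.96 to 44.4 and the tail at 3.85 to 16. Across the 52 tested Med and Taf genes, the level fell with gene length (Spearman's rho -0.495, as a description over genes that share libraries and a length term in the unit).

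**Figure D1:**
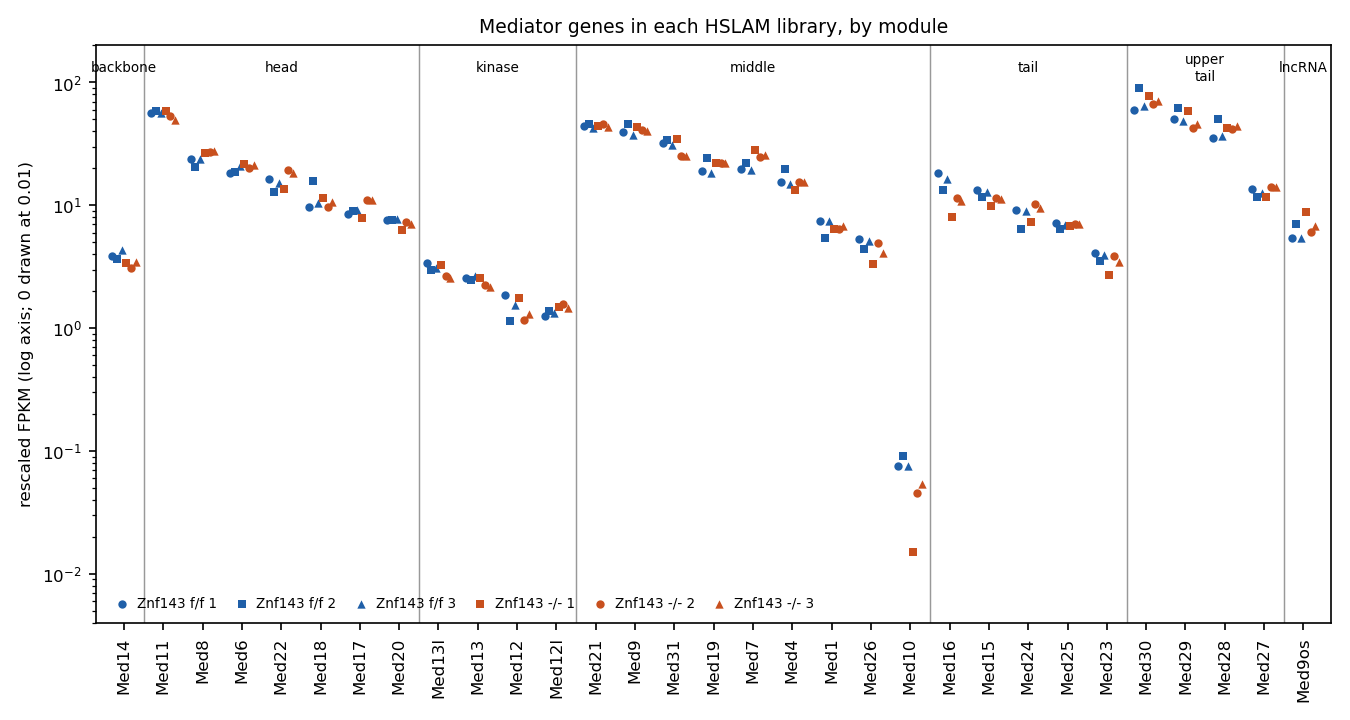
Rescaled FPKM (log axis) of each Mediator gene in each of the 6 HSLAM libraries, grouped by module and ordered by mean level within it. Blue points are *Znf143 f/f* and orange points *Znf143 -/-* libraries, and squares mark the second *Znf143 f/f* and the first *Znf143 -/-* library. By their means, the Med genes of the kinase module lie lowest of the tested genes shown, and *Med10* lies below 0.1 in every library.

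*Med10*, a subunit of the middle module, was not tested. It was at 0.0756, 0.0909 and 0.0760 in *Znf143 f/f* and at 0.0151, 0.0455 and 0.0537 in *Znf143 -/-* libraries, from 3 to 20 fragments each. In GENCODE M21, 92.8% of its exonic bases are shared with the lincRNA *Gm26819* on the opposite strand. *Taf9*, the histone fold partner of Taf6, was the lowest Taf gene tested, with 0.246, 0.25 and 0.161 in *Znf143 f/f* and 0.128, 0.174 and 0.195 in *Znf143 -/-* libraries, and 73.8% of its exonic bases are shared with *Ak6* on the same strand. The libraries did not mark strand, and how fragments on shared exons were assigned was not given in the sources used here, so both levels are uncertain. *Taf10*, the highest Taf gene, was at 50.4, 59.3 and 47.0 in *Znf143 f/f* and at 63.7, 52.1 and 52.7 in *Znf143 -/-* libraries, and 45.9% of its exonic bases lie opposite *Ilk*. Exons overlapped another gene in 26 of the 54 genes, over more than 25% of the exonic bases in 6.

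Among the 30 Mediator genes tested, none passed an adjusted p of 0.05 in either direction (limma on log2(rescaled FPKM + 0.1), Benjamini-Hochberg over all 19293 genes). Over all genes tested, 3% were called higher and 2.99% lower in *Znf143 -/-* libraries. At an unadjusted p under 0.05, 3 of the 30 Mediator genes passed, beside 24.2% of all genes. Voom on the recovered fragments called none of them, beside 7.26% of all genes. The median log2 fold change of the 30 genes was -0.02, against 0.01 over all genes, with 14 positive and 16 negative values. The summed level of these 30 genes, *Med9os* among them, was 554, 620 and 548 rescaled FPKM in *Znf143 f/f* libraries. In *Znf143 -/-* libraries it was 589, 560 and 562, so that the genotypes overlapped. A 95% interval within -1 to 1 was obtained for 29 of the 30 genes, and one within -0.5 to 0.5 for 17. The median half-width of the interval was 0.32.

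By module, the log2 fold changes had a median of 0.12 in the head (7 genes), -0.02 in the middle (8), 0.05 in the upper tail (4), -0.21 in the tail (5) and -0.12 in the kinase module (4), and *Med14*, the backbone, was at -0.25. No module held a called gene. The 2 largest differences pointed in opposite directions and fell in different modules. *Med16*, a tail subunit on the direct target list (chromosome 10 of GRCm38, 79894708 to 79908923), was at 18.3, 13.3 and 16.4 in *Znf143 f/f* and at 7.96, 11.4 and 10.9 in *Znf143 -/-* libraries. The genotypes did not overlap, and the mean was 16 ± 2.52 (SD, n = 3) against 10.1 ± 1.86 (SD, n = 3). Its log2 fold change of -0.67 (standard error 0.178, interval -1.09 to -0.24) had an adjusted p of 0.0784 with limma, and of 0.264 with the values as deposited. *Med7*, the partner of Med21 in the middle module (chromosome 11, 46436925 to 46442721), was at 19.7, 21.9 and 19.5 in *Znf143 f/f* and at 28.3, 24.9 and 25.9 in *Znf143 -/-* libraries. These did not overlap either, and the log2 fold change of 0.37 (standard error 0.0903, interval 0.16 to 0.59) had an adjusted p of 0.0632. With each library divided by its own total of fragments, *Med7* passed (adjusted p = 0.0393 with limma). A lincRNA on the opposite strand shares 21.2% of its exonic bases.

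The libraries of both genotypes lay apart, without overlap, for 3 Mediator genes that were higher in *Znf143 -/-* (*Med7*, *Med8* and *Med12l*) and for 4 tested ones that were lower (*Med14*, *Med15*, *Med16* and *Med20*). This held for 15.4% of all genes tested in the higher and for 15.3% in the lower direction. *Med8*, a head subunit that binds Med18 and Med20, was at 23.7, 20.5 and 24.0 in *Znf143 f/f* and at 26.5, 27 and 27.6 in *Znf143 -/-* libraries (log2 fold change 0.25, adjusted p = 0.149). *Med15*, a tail subunit contacted by activators such as SREBP, was at 13.4, 11.6 and 12.8 in *Znf143 f/f* and at 9.84, 11.6 and 11.3 in *Znf143 -/-* libraries (log2 fold change -0.21, adjusted p = 0.282). Its lowest *Znf143 f/f* and highest *Znf143 -/-* value were both 11.6 after rounding, and the length used in the table (3383 bases) was shorter than the 11642 exonic bases of GENCODE, so its level per length is uncertain.

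The other direct targets in Mediator showed no common direction, with 5 positive and 5 negative log2 fold changes over all 10 direct targets and a median of -0.01. Of the 10, 0 were called with limma or with voom, and 1 (*Med16*) had an unadjusted p under 0.05, beside 24.2% of all genes with limma. *Med17*, the scaffold of the head, was at 8.5, 9.0 and 9.1 in *Znf143 f/f* and at 7.9, 11.0 and 11.2 in *Znf143 -/-* libraries. *Med24*, a tail subunit, was at 9.23, 6.45 and 8.92 and at 7.33, 10.3 and 9.53 in the same order. *Med26*, which recruits elongation factors, was at 5.35, 4.39 and 5.13 and at 3.33, 4.92 and 4.11. For these 3 genes, the second *Znf143 f/f* or the first *Znf143 -/-* library lay lowest of its genotype. *Med27*, which links head and tail, was at 13.6, 11.8 and 12.5 in *Znf143 f/f* and at 11.8, 14.1 and 14.0 in *Znf143 -/-* libraries. The genotypes overlapped for all 4.

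The kinase module is encoded by paralog pairs of which vertebrate complexes hold 1 member each. *Med12* was at 1.85, 1.14 and 1.55 rescaled FPKM in *Znf143 f/f* and at 1.75, 1.16 and 1.29 in *Znf143 -/-* libraries. *Med13*, which links the kinase module to the core, was at 2.57, 2.46 and 2.65 and at 2.55, 2.25 and 2.17, and *Med13l* at 3.41, 2.99 and 3.09 and at 3.27, 2.67 and 2.58. The ratio of *Med12l* to *Med12* in *Znf143 f/f* was 0.913 ± 0.271 and in *Znf143 -/-* 1.11 ± 0.252 (SD, n = 3 each), and that of *Med13l* to *Med13* was 1.24 ± 0.0843 and 1.22 ± 0.0557. Both ratios lay near 1 and overlapped between genotypes. *Med9os* is a long non-coding RNA antisense to *Med9* that the symbol rule takes in. It was at 5.40, 7.01 and 5.40 in *Znf143 f/f* and at 8.81, 6.05 and 6.73 in *Znf143 -/-* libraries. Its exonic bases are not shared with another gene in GENCODE M21.

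**Figure D2:**
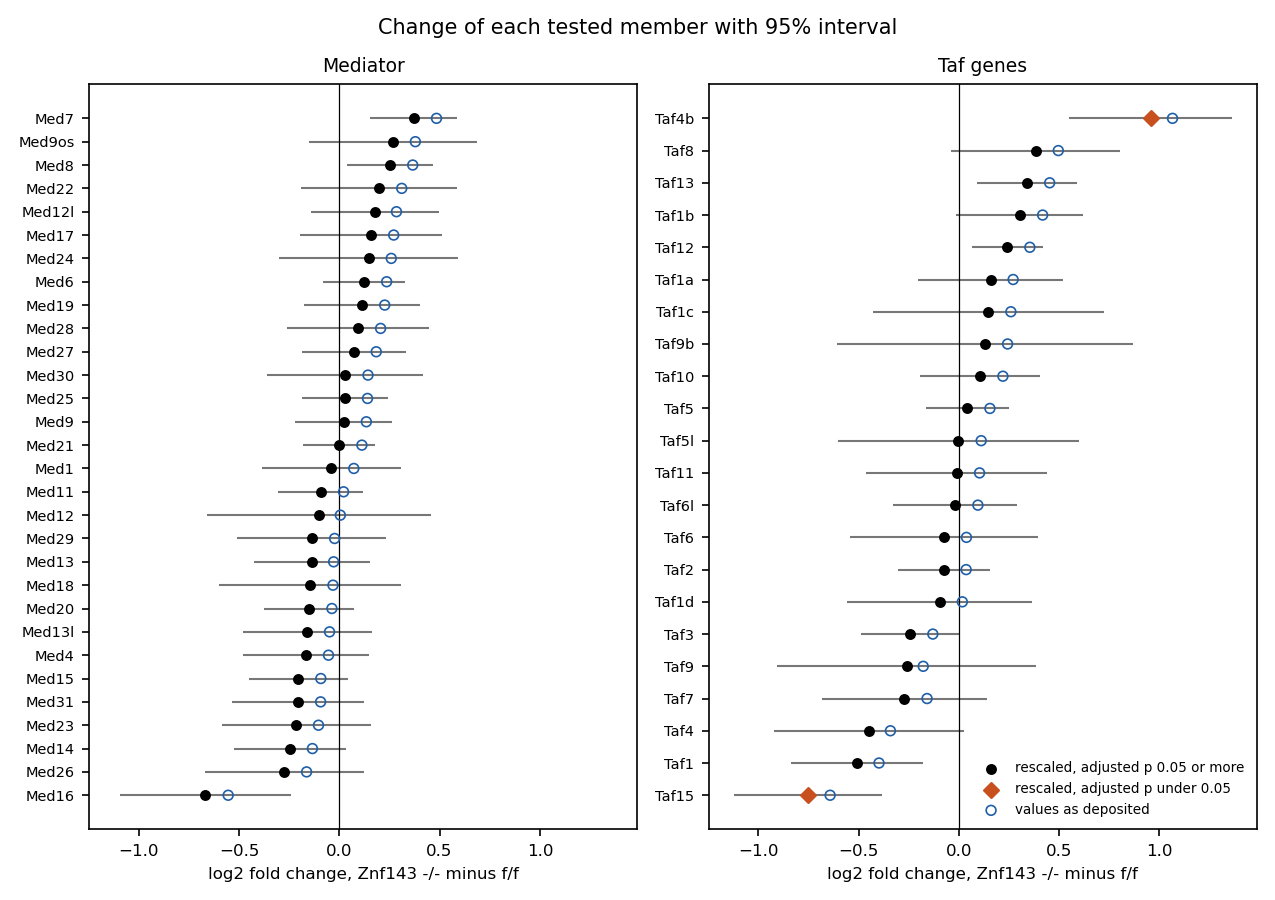
Log2 fold change (*Znf143 -/-* minus *Znf143 f/f*) of the 30 Mediator and 22 Taf genes tested, with 95% intervals from limma on rescaled FPKM. Filled points are rescaled values, diamonds those with an adjusted p under 0.05 (*Taf4b* and *Taf15*), and open circles the values as deposited, which lie further to the right by about the difference of the medians over all genes (0.01 and 0.11).

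Among the 22 Taf genes tested, *Taf4b* rose and *Taf15* fell at an adjusted p under 0.05, and 5 of the 22 had an unadjusted p under 0.05, beside 24.2% of all genes. The calls are 1 of 22 in each direction, beside 3% higher and 2.99% lower over all genes. The median log2 fold change of the 22 genes was -0.01, with 10 positive and 12 negative values. Summed over Taf genes, the level was 286, 316 and 288 rescaled FPKM in *Znf143 f/f* and 319, 300 and 303 in *Znf143 -/-* libraries. Of the 22, 15 belong to TFIID, and of these 1 (*Taf4b*) was called higher and 0 lower. Their median log2 fold change was -0.01, with 7 positive values. The summed TFIID level was 191, 217 and 193 in *Znf143 f/f* and 221, 201 and 205 in *Znf143 -/-* libraries. With the values as deposited, 1 Taf gene (*Taf4b*) and no Mediator gene was called, where 2.74% of all genes were called higher and 1.58% lower. In that scaling, the sign of the log2 fold change differed for 10 of the 52 genes, none of them called.

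**Figure D3:**
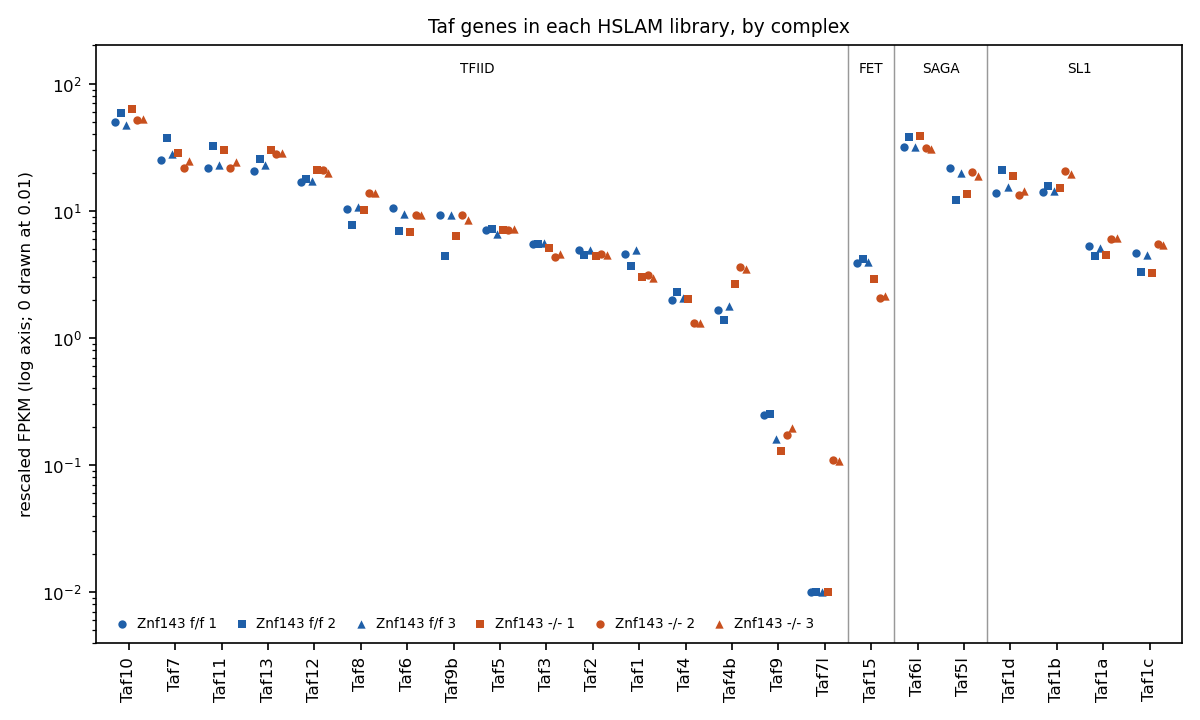
Rescaled FPKM (log axis) of each Taf gene in each of the 6 HSLAM libraries, grouped by the complex it belongs to. Colours and symbols are by genotype and library as in the plot of Mediator levels, and a value of 0 is drawn at 0.01. The *Znf143 -/-* points of *Taf4b* lie above and those of *Taf15* below all *Znf143 f/f* points.

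*Taf4b*, a paralog of *Taf4* best known for its role in the gonads (chromosome 18 of GRCm38, 14783245 to 14900359), rose in level. It was at 1.65, 1.40 and 1.79 rescaled FPKM in *Znf143 f/f* and at 2.64, 3.60 and 3.46 in *Znf143 -/-* libraries, which rests on 326 to 1034 fragments. All *Znf143 -/-* libraries lay above all *Znf143 f/f* libraries. The mean rose from 1.61 ± 0.199 (SD, n = 3) to 3.23 ± 0.518 (SD, n = 3), a ratio of 2.01. The log2 fold change was 0.96 (standard error 0.170, interval 0.55 to 1.36, adjusted p = 0.0271 with limma), and 1.06 with an adjusted p of 0.0484 as deposited. By exact permutation, two-sided, the levels gave p = 0.1, the smallest possible with 3 libraries against 3. Over the alternatives, the adjusted p ran from 0.00217 to 0.139. The lowest value came from the fit without the second *Znf143 f/f* and the first *Znf143 -/-* library, chosen after the values were seen. The call was lost with the replicate block (adjusted p = 0.109 with limma) and without the first *Znf143 f/f* (0.0966), the third *Znf143 f/f* (0.0887), the second *Znf143 -/-* (0.109) or the third *Znf143 -/-* library (0.139). Leaving out 1 library at a time kept the log2 fold change at 0.86 to 1.09.

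*Taf4*, the paralog that pairs with Taf12 in TFIID of most cells (chromosome 2, 179912152 to 179976646), was at 2.00, 2.28 and 2.05 in *Znf143 f/f* and at 2.03, 1.30 and 1.32 in *Znf143 -/-* libraries. The first *Znf143 -/-* library overlapped with *Znf143 f/f* and the other 2 lay below. The log2 fold change of -0.45 (interval -0.92 to 0.03) had an adjusted p of 0.228 with limma, and of 0.0378 without the first *Znf143 -/-* library. The ratio of *Taf4b* to *Taf4* was 0.826, 0.611 and 0.872 in *Znf143 f/f* and 1.30, 2.77 and 2.62 in *Znf143 -/-* libraries. *Taf4* was thus the higher of the paralogs in each *Znf143 f/f* library and the lower in each *Znf143 -/-* library. By exact permutation, two-sided, this ratio gave p = 0.1, again the smallest possible, and of the 6 paralog ratios computed it was the only one without overlap between genotypes. *Taf12*, the partner of both, was at 17.0, 17.9 and 17.2 in *Znf143 f/f* and at 21, 20.8 and 19.9 in *Znf143 -/-* libraries, without overlap (log2 fold change 0.24, adjusted p = 0.111).

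*Taf15* (chromosome 11, 83473086 to 83506743) was at 3.88, 4.20 and 3.95 rescaled FPKM in *Znf143 f/f* and at 2.90, 2.07 and 2.13 in *Znf143 -/-* libraries, from 295 to 601 fragments. All *Znf143 -/-* libraries lay below all *Znf143 f/f* libraries. The mean was 4.01 ± 0.167 (SD, n = 3) against 2.37 ± 0.464 (SD, n = 3), and the log2 fold change was -0.75 (standard error 0.155, interval -1.12 to -0.38, adjusted p = 0.0419 with limma). The adjusted p ran from 0.00206 to 0.183 over the alternatives. Its lowest value came from the fit without the second *Znf143 f/f* and the first *Znf143 -/-* library, chosen after the values were seen. The call was lost with the values as deposited (log2 fold change -0.64, adjusted p = 0.0941), with the replicate block (0.138) and without a variance trend (0.0553). It was also lost without the first (0.130), the second (0.0571) or the third *Znf143 f/f* (0.152) or without the second (0.142) or the third *Znf143 -/-* library (0.183), with log2 fold changes of -0.78 to -0.66. Without the first *Znf143 -/-* library, it held (log2 fold change -0.90, adjusted p = 0.0116 with limma).

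**Figure D4:**
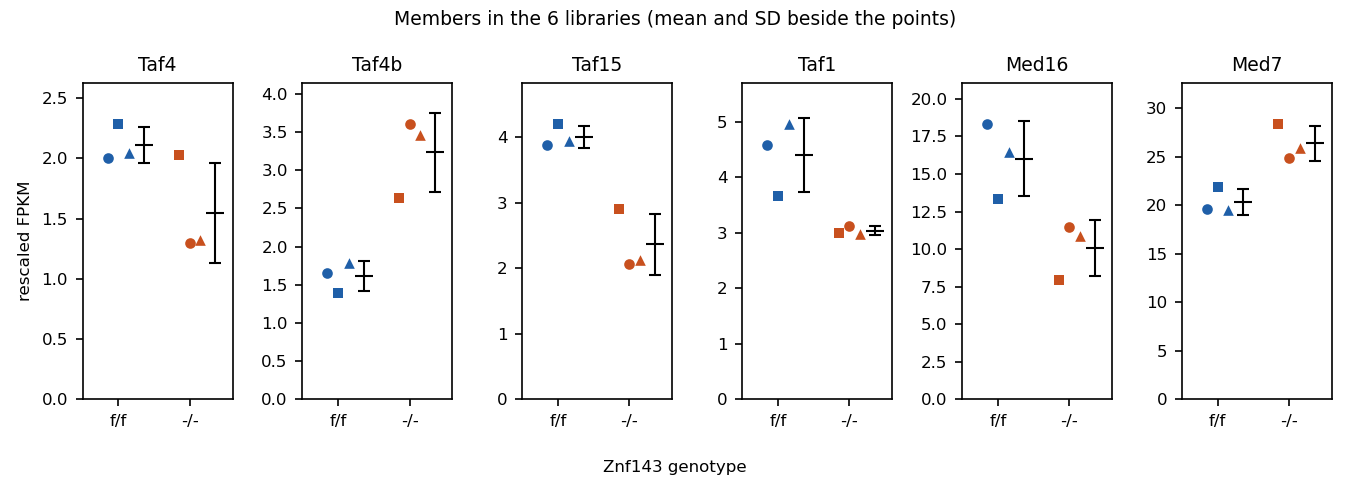
Rescaled FPKM of *Taf4*, *Taf4b*, *Taf15*, *Taf1*, *Med16* and *Med7* in the *Znf143 f/f* (blue) and *Znf143 -/-* (orange) libraries, each panel on its own axis from 0, with the mean and SD (n = 3) beside the points. Squares are the second *Znf143 f/f* and the first *Znf143 -/-* library. Only *Taf4* overlaps between genotypes, at its first *Znf143 -/-* library.

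*Taf1*, *Taf3*, *Taf12* and *Taf13* lay apart between genotypes without passing the test. *Taf1*, the largest subunit, which carries a double bromodomain (chromosome X, 101532734 to 101601789), was at 4.58, 3.66 and 4.95 in *Znf143 f/f* and at 3.0, 3.12 and 2.98 in *Znf143 -/-* libraries. These did not overlap, and the log2 fold change of -0.51 (standard error 0.138, interval -0.84 to -0.18) had an adjusted p of 0.0815 with limma, and of 0.0196 without the second *Znf143 f/f* library. *Taf3*, whose PHD finger reads H3K4me3, was at 5.51, 5.44 and 5.62 in *Znf143 f/f* and at 5.14, 4.33 and 4.53 in *Znf143 -/-* libraries, also without overlap (log2 fold change -0.24, adjusted p = 0.216). *Taf13*, the histone fold partner of Taf11, was at 20.4, 25.7 and 22.7 and at 30.4, 28.1 and 28.4, higher in *Znf143 -/-* without overlap (log2 fold change 0.34, adjusted p = 0.110). In all, 3 Taf genes lay higher (*Taf4b*, *Taf12* and *Taf13*) and 3 lower (*Taf1*, *Taf3* and *Taf15*) without overlap, beside 15.4% and 15.3% of all genes.

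*Taf5*, the WD40 scaffold of TFIID, showed little spread, with 7.05, 7.17 and 6.53 in *Znf143 f/f* and 7.05, 7.07 and 7.23 in *Znf143 -/-* libraries (log2 fold change 0.04). *Taf5l*, its SAGA counterpart, was at 21.8, 12.2 and 19.8 and at 13.7, 20.2 and 19.0. *Taf6* was at 10.5, 6.92 and 9.42 and at 6.77, 9.27 and 9.30, and *Taf6l* at 31.8, 38.3 and 31.8 and at 39.0, 30.9 and 30.9. The SAGA paralogs were thus higher than their TFIID counterparts in every library, with *Taf6l* at 3.98 ± 1.36 times the level of *Taf6* in *Znf143 f/f* and at 4.14 ± 1.40 times in *Znf143 -/-* (SD, n = 3 each). Of the exonic bases of *Taf6*, 26.5% lie opposite *Ap4m1*. The length used for *Taf6l* (5884 bases) also differs from the 5017 exonic bases of GENCODE, so the size of this ratio is uncertain. For *Taf5l* to *Taf5*, the ratio was 2.61 ± 0.789 and 2.47 ± 0.479. *Taf9b* was at 9.19, 4.41 and 9.26 and at 6.29, 9.22 and 8.53, above *Taf9* in every library, a difference of levels that carries the uncertainty of *Taf9*. *Taf7*, a partner of Taf1, was at 25.3, 37.6 and 28.1 and at 28.6, 21.7 and 24.5, whereas *Taf7l*, a paralog known from the testis, was listed at 0 in 4 libraries and at 0.109 and 0.107 in the second and the third *Znf143 -/-* libraries.

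The SL1 genes, which act with RNA polymerase I, had a median log2 fold change of 0.15, and 0 of the 4 had an unadjusted p under 0.05 with limma or with voom, beside 24.2% and 24.9% of all genes. *Taf1a* was at 5.30, 4.44 and 5.08 in *Znf143 f/f* and at 4.50, 6.02 and 6.17 in *Znf143 -/-* libraries. *Taf1b* was at 14.2, 15.7 and 14.3 and at 15.1, 20.6 and 19.4, *Taf1c* at 4.64, 3.29 and 4.50 and at 3.22, 5.44 and 5.36. *Taf1d* was at 13.9, 20.8 and 15.3 and at 18.9, 13.3 and 14.4, and its exons contain snoRNAs. In the first 3, the second and the third *Znf143 -/-* libraries lay above all others and the first *Znf143 -/-* library lay within or below the range of *Znf143 f/f*.

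A recurring pattern among the Med and the Taf genes concerned the second *Znf143 f/f* and the first *Znf143 -/-* library. These 2 libraries departed from their own genotype in the same direction. Both were the lowest of their genotype for 17 of the 52 tested genes (such as *Taf9b*, *Taf5l*, *Taf1c*, *Med24* and *Med16*) and both the highest for another 17 (such as *Taf11*, *Taf1d*, *Med18*, *Med29* and *Med30*), 65.4% in all. The share was 56.7% of the 30 Mediator genes and 77.3% of the 22 Taf genes. Over all 19293 genes tested, it was 49.7%, so the pattern was not particular to these genes. Across the 52 genes, the deviations of these 2 libraries from their genotype means correlated with r = 0.602 (a description across genes that share libraries), and over all genes tested with r = 0.0882. Other pairs of libraries, such as the first *Znf143 f/f* and the second *Znf143 -/-* (r = 0.604 across the 52 genes), correlated as much, as deviations within a genotype sum to 0. A further measure took each library minus the mean of the other 2 of its genotype. By it, the median absolute log2 deviation over all genes was 0.318 in the second *Znf143 f/f* and 0.312 in the first *Znf143 -/-* library. It was 0.144 to 0.207 in the other 4 libraries.

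**Figure D5:**
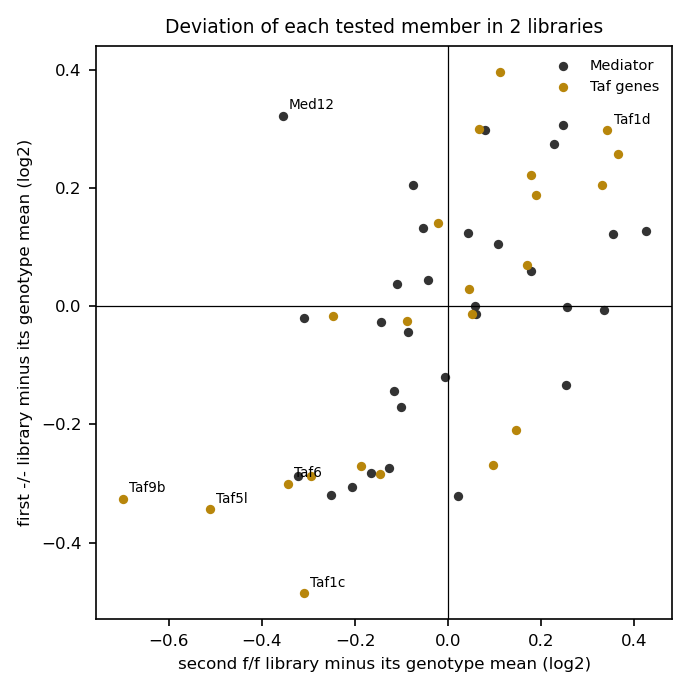
Log2(rescaled FPKM + 0.1) of each of the 52 tested genes in the second *Znf143 f/f* library (horizontal) and the first *Znf143 -/-* library (vertical), each minus the mean of its genotype. Most points lie in the lower left and upper right, and the 6 genes with the largest summed deviation are named.

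When both libraries were left out, a choice made after the values were seen that leaves 2 libraries per genotype, 11 Mediator genes (7 higher, 4 lower) and 11 Taf genes (7 higher, 4 lower) were called. Over all genes, 22.3% were then called higher and 20% lower, so that 22 of 52 genes stood beside 42.3% of all genes. The lower genes were *Med13l*, *Med15*, *Med16*, *Med31*, *Taf1*, *Taf3*, *Taf4* and *Taf15*. The higher genes included *Med7*, *Med8*, *Med17*, *Taf4b*, *Taf8*, *Taf12*, *Taf13* and the SL1 genes *Taf1a*, *Taf1b* and *Taf1c*. *Taf4b* was at a log2 fold change of 1.00 (adjusted p = 0.00217 with limma) and *Taf15* at -0.86 (adjusted p = 0.00206). With the replicate block, in contrast, no Mediator or Taf gene was called (2 and 4 had an unadjusted p under 0.05 with limma, as had 18.3% of all genes), where 0.441% of all genes were called higher and 0.549% lower.

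Among other genes of the initiation machinery, taken from lists, 2 of the 18 general transcription factors tested were called. Over all genes, 3% were called higher and 2.99% lower. At an unadjusted p under 0.05 with limma, 7 of the 18 passed, beside 24.2% of all genes. *Gtf2h4*, the p52 subunit of TFIIH, was called lower. *Gtf2a1l*, a TFIIA paralog known from germ cells, was called higher, but reached the mean FPKM of 0.1 only through the *Znf143 -/-* libraries. *Gtf2h4* was at 14.5, 15.0 and 15.3 rescaled FPKM in *Znf143 f/f* and at 5.89, 6.83 and 6.44 in *Znf143 -/-* libraries (log2 fold change -1.22, standard error 0.0906, adjusted p = 0.00135 with limma), a larger change than that of any Mediator or Taf gene tested. *Gtf2a1l* had no fragment in any *Znf143 f/f* library and 34, 30 and 36 fragments in *Znf143 -/-* libraries, which is at least 9.64-fold higher against a floor of 3 fragments per *Znf143 f/f* library. Of 16 SAGA partners tested, *Sgf29*, the reader of H3K4 methylation, and *Kat2b*, an acetyltransferase, were called lower and none higher. This stood beside 2.99% called lower and 3% higher over all genes. At an unadjusted p under 0.05 with limma, 6 of the 16 passed, beside 24.2% of all genes. *Sgf29* was at 53.7, 54.7 and 51.5 in *Znf143 f/f* and at 31.6, 35.9 and 34.6 in *Znf143 -/-* libraries (log2 fold change -0.65, adjusted p = 0.00890, and 0.114 as deposited). *Kat2b* had an adjusted p of 0.0394 with limma and of 0.258 as deposited, so that no SAGA partner was called in the deposited scaling. None of the 3 kinase partners, the 2 TBP family genes (*Tbp* and *Tbpl1*) or the 5 initiation factors of RNA polymerases I and III passed with limma or with voom, and only 1 of these 10 genes, *Cdk19*, had an unadjusted p under 0.05 (24.2% of all genes).

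Marker genes also differed between the genotypes, and their part in the differences of *Taf4b* and *Taf15* was not tested. Of 32 markers of stem cells and other blood cells, 26 were tested, 6 were called higher and 2 lower. Over all genes tested, 3% were called higher and 2.99% lower. *Cd48*, which the sort gate excludes, was at 9.73, 11.1 and 9.61 in *Znf143 f/f* and at 19.7, 20.5 and 19.8 in *Znf143 -/-* libraries. Of 8 stem cell markers, *Ly6a* was called higher and *Mecom* lower, and the median log2 fold change of the 8 was -0.34. Their summed level was 516 to 575 in *Znf143 f/f* and 790 to 837 in *Znf143 -/-*, and the rise of this sum came from *Ly6a*. Of 8 myeloid markers, *S100a8*, *Elane* and *Csf1r* were called higher, and the median log2 fold change of the 7 tested was 1.40. *Csf1r* was at 0.00535, 0 and 0.0140 in *Znf143 f/f* and at 0.186, 0.264 and 0.197 in *Znf143 -/-* libraries. It thus reached the mean FPKM of 0.1 only through the *Znf143 -/-* libraries. The summed level of the 8 markers was 573 to 647 in *Znf143 f/f* and 527 to 570 in *Znf143 -/-*. Most of it came from *Lyz2*, which was not called and was at 533 to 570 and at 417 to 431. Of the lymphoid markers, *Dntt* was called higher (0.331, 0 and 0.299 in *Znf143 f/f* and 7.02, 7.75 and 7.86 in *Znf143 -/-*), while *Cd79a*, *Cd3e*, *Il7r* and *Ebf1* stayed at or below 0.084 in every library. Of 5 erythroid markers, *Hbb-bt* was called lower (summed level 36.8 to 48.1 and 37.2 to 41.3), and 0 of the 4 megakaryocyte markers were called with limma and 1 with voom (526 to 602 and 647 to 978). In such bulk samples, fewer cells of a type and less RNA per cell cannot be told apart.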

How the data were processed

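The 6 RNA-seq libraries of sorted HSLAM cells (3 per genotype) were used, and ChIP-seq and HiC data were not analysed here. The authors prepared unstranded libraries, aligned reads to GRCm38 with STAR, counted fragments per gene and deposited 1 table with the FPKM of each library. Their own comparison columns (mean normalized count, log2 fold change, standard error, test statistic and p-values) were not used. Whole fragments were recovered from FPKM times gene length (at least 99.978% of values per library within 0.05 of a whole number). The libraries held 38643255 to 57895793 fragments on genes. In the third *Znf143 -/-* library, the deposited FPKM carry the divisor of the second, a ratio of 1.20, so each library was divided by a median-of-ratios size factor (0.906 to 1.20). Genes averaging at least 0.1 FPKM were tested with limma 3.58.1 in R 4.3.3 on log2(FPKM + 0.1), using a variance trend, no block and Benjamini-Hochberg adjustment. Script tests used simulated data. Levels in every library are given for called genes, those called as deposited, the highest and lowest gene of each complex, direct targets and paralog pairs, and *Med7*, *Med8*, *Taf1*, *Taf3*, *Taf12* and *Taf13* were added after their values were seen. The values of 1 marker gene are not reported here. The genes and lists were chosen with earlier results of these data known. No source says which littermates form a pair. Alternatives were the values as deposited, division by the library's own total, other pseudocounts (0.01, 1), no filter on low genes, a filter at a mean FPKM of 1, voom, no variance trend, the replicate block and each library left out. A fit without both the second *Znf143 f/f* and the first *Znf143 -/-* library was added after the values were seen. Python 3.11.15 and pandas 2.3.3 were used.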

Additional observations from a re-analysis of the deposited data

How the results depend on the processing

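With the values as deposited, 0 Mediator and 1 Taf gene were called, and without a variance trend 0 and 1. With each library divided by its own total, 1 Mediator gene (*Med7*) was called. With the replicate block, 0 Mediator, 0 Taf and 191 of all genes were called, against 0, 2 and 1154 without it. Over all genes tested, the deviations of same-numbered libraries correlated at -0.095, -0.088 and 0.036. As deviations within a genotype sum to 0, these values cannot show whether the replicate numbers pair littermates. Leaving out each library in turn gave 0 to 2 Mediator genes, 0 to 4 Taf genes and 226 to 2290 of all genes. The higher counts came without the second *Znf143 f/f* (2, 3 and 2290) and without the first *Znf143 -/-* library (2, 4 and 2110), and without both, chosen after the data were seen, the counts were 11, 11 and 8133. As deposited, 833 of all genes were called, 529 higher and 304 lower, against 578 and 576 after rescaling. Pseudocounts of 0.01 or 1, no filter, a filter at a mean FPKM of 1 and voom left the counts at 0 and 2, and no called gene changed direction under any alternative run. Depth limits *Taf9* (12 to 26 fragments), *Med10* and *Taf7l*.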
